A study of Mus musculus with 6 samples.

Results

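The transcription factors described here are 10 mouse genes that act in the control of endothelial genes. They are the ETS factors Erg, Fli1, Ets1 and Ets2, the SoxF factors Sox7, Sox17 and Sox18, and the GATA factor Gata2 with Tal1 and Lmo2, which bind DNA as parts of a shared complex. They were listed by gene symbol, with earlier results of these data known, to ask whether an endothelial regulatory program changed in bone cells of mice given a glucocorticoid. Of the 10, 9 were found among the 29616 genes of the table by their Ensembl identifiers, and Sox17 was not analysed here. The table holds RNA sequencing of 3 control libraries and 3 libraries from mice treated with dexamethasone, a drug of the glucocorticoid class. The daily dose was 0.08 µg per g of body weight over 4 weeks, and by the study's methods it began at 8 weeks of age. All mice are labelled C57BL/6, and the material is labelled bone cells. The study describes the cells as Osteocalcin-positive and isolated from bones after removal of the marrow. The study calls the control mice of these cells non-treated, and names saline as the control where it describes dexamethasone-treated femurs. Whether a library came from a single mouse or a pool is not given in the sources used here. The submitters call the replicates biological.

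ETS factors recognize DNA through a shared domain around a GGAA core, and several of them are active at once at most endothelial enhancers. SoxF factors act in arterial and lymphatic endothelium. Gata2, the helix-loop-helix factor Tal1 and the bridging protein Lmo2 are used by both endothelial and blood-forming cells, so that none of these genes marks endothelium alone. Ets1, Ets2 and Fli1 are also transcribed in connective tissue cells.

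The values are read counts divided by a size factor for each library, here called normalized counts. The 6 libraries held 72596611 to 89910728 reads each. A library with 0 reads of a gene is compatible with up to 3. This limit and the intervals on read ratios cover counting error only. Transcripts of the osteoblast lineage were measured in both groups and moved in both directions. Col1a1, the main collagen gene of bone, was at 961923 ± 32794 (SD, n = 3) normalized counts in the control libraries and 261192 ± 17852 (SD, n = 3) with dexamethasone. Bglap, which encodes Osteocalcin itself, was at 107 ± 12.9 (SD, n = 3) in the control libraries and 12.2 ± 2.80 (SD, n = 3) with dexamethasone. Spp1, which encodes osteopontin, went the other way, from 33595 ± 988 to 1279670 ± 29570.5 (SD, n = 3), a ratio of 38.1, and Dmp1, a matrix protein gene of osteocytes, from 38.5 ± 2.66 to 5639 ± 326 (SD, n = 3), a ratio of 146. Another annotated gene on the same strand overlaps 18.75% of the exon bases of Spp1. Bglap has near-identical copies in the genome, so its count is uncertain. The copy Bglap2 was also lower, at 324 ± 21.0 in the control libraries and 31.3 ± 2.17 with dexamethasone (SD, n = 3). Fewer cells of a type and less RNA per cell cannot be told apart in such samples.

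**Figure D1:**
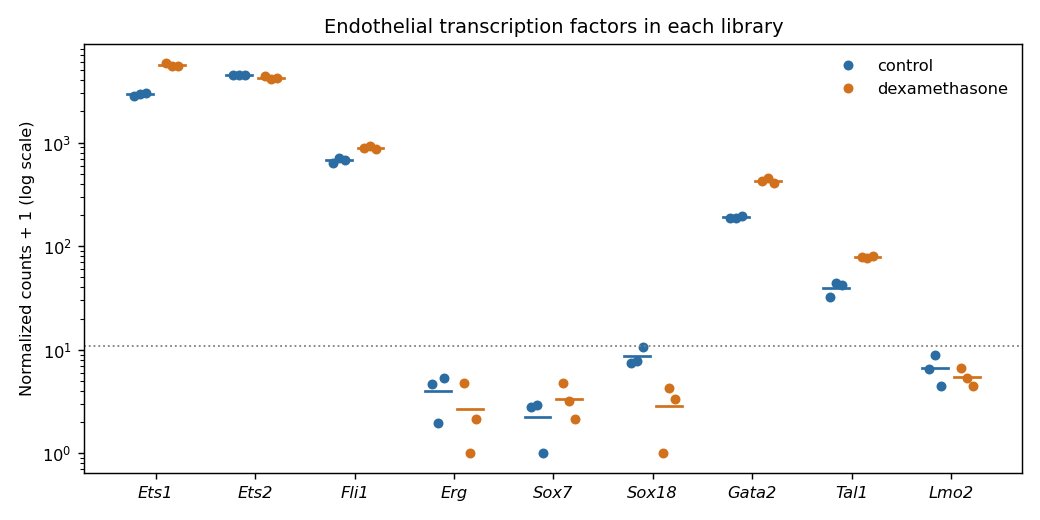
Normalized counts plus 1 (log axis) of the 9 genes in each control library (blue) and each dexamethasone library (orange), with bars at the group means and a dotted line at the filter, a mean of 10. Ets1, Ets2, Fli1, Gata2 and Tal1 lie above the line in every library, whereas Erg, Sox7, Sox18 and Lmo2 lie below it.

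The 9 genes fell into an expressed and a nearly silent set. Testing was limited to the 17442 genes that averaged 10 or more normalized counts, among them 5 of the 9, namely Ets1, Ets2, Fli1, Gata2 and Tal1. A gene was called differentially expressed where limma's adjusted p-value was below 0.05 and the log2 fold change reached 1 or -1, after the cut-offs of the study. Gata2 and Tal1 met both, in the direction of dexamethasone, against 22.3% of all tested genes in either direction and 11.7% upward. At the adjusted p-value alone, Gata2, Tal1, Ets1 and Fli1 were higher and Ets2 was lower, against 72.5% of all tested genes in either direction, 37.2% higher and 35.2% lower. The control and dexamethasone libraries did not overlap for any of these 5 genes. Such a separation was found in 74.7% of all tested genes, upward in 38.4% and downward in 36.4%. The median log2 fold change of the 5 genes was 0.93, against 0.00071 over all tested genes. Erg, Sox7, Sox18 and Lmo2, under the filter, are not in this median. In the fit without a filter their log2 fold changes were -0.75, 0.66, -1.82 and -0.23, from few reads.

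Gata2 (ENSMUSG00000015053) encodes a zinc finger factor of endothelial, mast and early blood cells. Normalized counts of Gata2 were 187, 187 and 193 in the controls (replicates 1, 2 and 3) and 423, 450.2 and 405 in the dexamethasone libraries (replicates 1, 2 and 3). Every dexamethasone library was above every control library, and the control libraries lay close together. The ratio of the group means was 2.25 and the log2 fold change 1.17 (standard error 0.0899, limma adjusted p = 1.98e-11). It stayed above the cut-off of 1 in all 17 alternative settings, between 1.05 and 1.20.

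Tal1 (ENSMUSG00000028717), the helix-loop-helix factor that with Gata2 starts hemogenic programs, was expressed at a lower level. Control replicates 1, 2 and 3 had 31.2, 43.1 and 41.3 normalized counts, or 34, 44 and 47 reads. Dexamethasone replicates 1, 2 and 3 had 78.2, 75.2 and 79.1 normalized counts, or 82, 69 and 68 reads. The groups were well apart, with control replicate 1 the lowest of the 6. The log2 fold change was 1.00 (standard error 0.196, limma adjusted p = 7.09e-05), at the cut-off. It was 0.86 without control replicate 1, 0.996 without dexamethasone replicate 1 and 0.99 without dexamethasone replicate 3, each short of the cut-off. The value was also short of it at 0.98 with edgeR on the recovered reads, with adjusted p-values between 1.04e-05 and 0.00112 over its 16 alternative settings.

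The promoters of Gata2 and Tal1 are shown because these are the expressed genes past both cut-offs. The windows are the 250 bases before a transcription start in RefSeq, on the GRCm38.p6 build, and 4 of the 10 genes had 8 such windows in the table used. The windows printed are chr4:115056176-115056425 and chr4:115057561-115057810 (plus strand) for the first and the second start of Tal1, and chr6:88193641-88193890 (plus strand) for the first start of Gata2. None of these windows overlaps an exon of the GENCODE M21 annotation. Capitals mark the letters searched, on both strands.
Tal1, first start: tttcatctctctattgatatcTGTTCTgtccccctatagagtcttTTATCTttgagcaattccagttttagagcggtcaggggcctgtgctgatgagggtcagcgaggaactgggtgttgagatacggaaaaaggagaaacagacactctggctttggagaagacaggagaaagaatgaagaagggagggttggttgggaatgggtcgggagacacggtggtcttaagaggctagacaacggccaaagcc
Tal1, second start: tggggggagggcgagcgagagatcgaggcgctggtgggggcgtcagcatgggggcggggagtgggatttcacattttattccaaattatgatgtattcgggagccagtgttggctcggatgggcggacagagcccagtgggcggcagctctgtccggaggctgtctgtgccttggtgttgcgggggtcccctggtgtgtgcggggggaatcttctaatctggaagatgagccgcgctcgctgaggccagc
Gata2, first start: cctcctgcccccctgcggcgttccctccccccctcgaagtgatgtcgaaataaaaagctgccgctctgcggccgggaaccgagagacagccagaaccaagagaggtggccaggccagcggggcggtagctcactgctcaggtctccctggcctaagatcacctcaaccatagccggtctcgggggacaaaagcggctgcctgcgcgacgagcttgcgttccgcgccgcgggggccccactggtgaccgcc
The search used CGGAAG for ETS factors, AGATAA for GATA factors, CAGATG for Tal1 with its partners, ACAAAG for SOX factors and AGAACA for the core of the glucocorticoid receptor site, and no match overlapped another. The full receptor site was searched as AGAACA and TGTTCT with any 3 bases between them. The first start of Tal1 held the receptor core (read as its reverse complement) from base -229 and the GATA letters, also reversed, from base -205, where -1 is the base before the start. The other windows of Tal1 and Gata2 held none of these letters. Among all 32851 RefSeq windows of this length, 16.1% held the receptor core, 9.99% the GATA letters and 0.00913% the full receptor site. Erg held the GATA letters at its start 3, and the window of Ets2 held none of the motifs. A match is a description of the letters and not a sign of binding.

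Ets1 (ENSMUSG00000032035), an ETS factor of endothelial, lymphoid and stromal cells that is induced in angiogenesis, rose by nearly as much as Tal1 with far more reads. Its normalized counts were 2822, 2933 and 2996 in the controls, in replicate order, and 5794, 5426 and 5439 with dexamethasone. The spread within groups was small beside the distance between them. The ratio of means was 1.90 and the log2 fold change 0.93 (standard error 0.0399, limma adjusted p = 1.48e-16), with a 95% interval of 0.85 to 1.01. It was therefore higher at the adjusted p-value but under the cut-off on the fold change, as in all 17 alternative settings, where it was between 0.76 and 0.95.

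Ets2 (ENSMUSG00000022895), the closest paralog of Ets1, did not follow it. Ets2 had 4529.7, 4468 and 4473 normalized counts in the controls, in replicate order, and 4352, 4143 and 4188 with dexamethasone. All dexamethasone libraries were slightly below all control libraries. The log2 fold change was -0.09 (standard error 0.037, limma adjusted p = 0.0385). That call was lost without any single one of 5 libraries, with adjusted p-values of 0.102, 0.0615 and 0.0895 without control replicates 1, 2 and 3, and 0.12 and 0.107 without dexamethasone replicates 2 and 3. With all libraries scaled to the same total the value was -0.20, and after quantile normalization -0.26.

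The ratio of Ets1 to Ets2 within a library does not depend on the scaling of that library. Per kilobase of annotated exon, the ratio of the levels was 0.425, 0.448 and 0.457 in the controls, in replicate order, and 0.908, 0.893 and 0.886 with dexamethasone. Ets1 was thus below Ets2 per length in every library, and much closer to it with dexamethasone. Without the length, the ratio of normalized counts plus 1 was 0.623 to 0.670 in the controls and 1.30 to 1.33 with dexamethasone. The order with dexamethasone therefore rests on the annotated exon lengths, 8476 bases for Ets1 and 5780 for Ets2. The difference of the log2 ratios between the groups was 1.02, beside an SD of 0.0538 in the control and 0.0183 in the dexamethasone libraries (n = 3 each). The exact two-sided permutation test gave p = 0.1 (adjusted p = 0.1 over the 1 ratio tested), the smallest value that 3 against 3 libraries allow. The ratios of Erg to Fli1 and among Sox7, Sox17 and Sox18 were not tested, since a gene of each was under the filter or not analysed here.

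Fli1 (ENSMUSG00000016087), an ETS factor of endothelial and megakaryocytic cells, changed less than Ets1. Fli1 stood at 638, 706 and 673 normalized counts in the controls, in replicate order, and at 883, 917 and 865 with dexamethasone. Each dexamethasone library was above each control library. The log2 fold change was 0.40 (standard error 0.0611, limma adjusted p = 2.35e-06), a ratio of means of 1.32. It was between 0.29 and 0.44 over the 17 alternative settings and never reached 1.

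**Figure D2:**
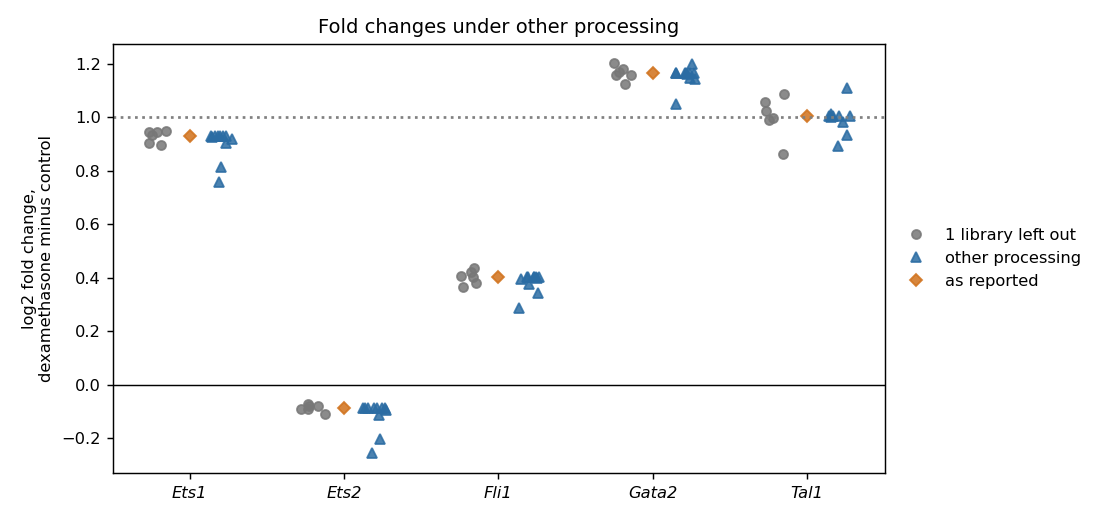
The log2 fold changes (dexamethasone minus control) of the 5 tested genes as reported (orange diamonds), with 1 library left out (grey circles) and under other processing (blue triangles), with a dotted line at the cut-off of 1. Gata2 stays above the line and Ets1, Fli1 and Ets2 below it, whereas the values of Tal1, 0.86 to 1.11, lie on either side.

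Erg (ENSMUSG00000040732), the ETS factor most closely tied to mature endothelium and the nearest relative of Fli1, was almost without reads. In replicate order, 4, 1 and 5 reads were counted in the controls and 4, 0 and 1 with dexamethasone. The groups overlapped. The ratio of dexamethasone to control was 0.575, with an exact 95% counting interval from 0.154 to 1.85. Neither a rise nor a fall was thus shown with so few reads, and the interval holds no rise beyond 1.85.

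Sox7 (ENSMUSG00000063060), a SoxF factor of early endothelium, had 2, 2 and 0 reads in the controls and 4, 2 and 1 with dexamethasone. The groups overlapped, and the ratio of dexamethasone to control was 2.01 with an interval from 0.512 to 9.37. Sox18 (ENSMUSG00000046470), the SoxF factor that acts upstream of lymphatic genes, had 7, 7 and 11 reads in the controls and 0, 3 and 2 with dexamethasone. Here the groups did not overlap, with every control library above every dexamethasone library. The ratio was 0.23 with an interval from 0.0688 to 0.612. Sox18 was under the filter. In the fit without a filter its log2 fold change was -1.82 (standard error 0.596, limma adjusted p = 0.0147). The level behind this value is a mean of 7.65 normalized counts in the control libraries, and all dexamethasone libraries were at or under the limit of 3 reads.

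Lmo2 (ENSMUSG00000032698), the protein that bridges Tal1 and Gata2 on DNA, had 6, 8 and 4 reads in the controls and 6, 4 and 3 with dexamethasone. The ratio of dexamethasone to control was 0.83 with an interval from 0.374 to 1.79, and the groups overlapped. Among transcripts of the complex, those of Gata2 and Tal1 were thus higher and Lmo2 was at a few reads in every library. Ldb1, from the list of partners below, was lower at -0.28 on the log2 scale (limma adjusted p = 5.77e-07). That list moved in both directions, and the complex itself was not measured.

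Per kilobase of exon in the GENCODE M21 annotation, the order of the tested genes was Ets2, Ets1, Fli1, Gata2 and Tal1 in each of the 6 libraries. The mean levels in the control libraries were 777 ± 5.94 normalized counts per kilobase for Ets2, 344 ± 10.4 for Ets1, 193 ± 9.68 for Fli1, 35.04 ± 0.668 for Gata2 and 8.80 ± 1.46 for Tal1 (SD, n = 3). With dexamethasone they were 731 ± 19 for Ets2, 655 ± 24.6 for Ets1, 255 ± 7.51 for Fli1, 78.9 ± 4.25 for Gata2 and 17.7 ± 0.463 for Tal1 (SD, n = 3). Neighbours in this order did not overlap within either group, and Ets1 and Ets2 with dexamethasone lay closest. Sox18, Lmo2, Erg and Sox7 were between 0.383 and 4.72 on this scale in the control libraries and between 0.479 and 2.09 with dexamethasone. In the same annotation no other gene overlaps an exon of any of the 9 genes.

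**Figure D3:**
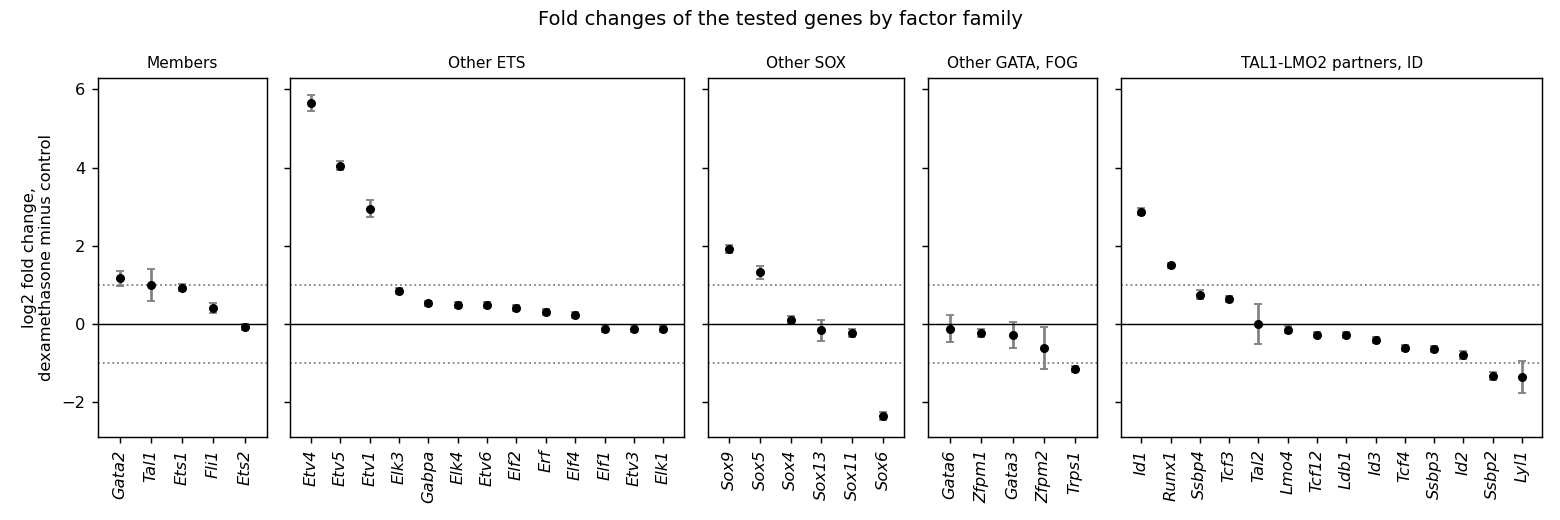
The log2 fold changes (dexamethasone minus control) with 95% intervals from limma for the tested genes, by family, with dotted lines at the cut-offs of 1 and -1. The changes of the endothelial factors at the left, between -0.09 and 1.17, are smaller than those of Etv4, Etv5, Etv1, Sox6 and Id1 in the other panels.

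Several relatives of the same families changed more. Beside each list below, 37.2% of all tested genes were higher and 35.2% lower at the adjusted p-value. Past both cut-offs, 11.7% of all tested genes were higher and 10.6% lower. Of 22 other ETS genes, 13 were tested, of which 10 were higher and 3 lower at a limma adjusted p-value under 0.05, and 3 were differentially expressed, all upward. Their median log2 fold change was 0.48, against 0.00071 over all tested genes. The 3 genes are the PEA3 group, which acts downstream of growth factor and MAP kinase signals. Etv4 went from 56.5 ± 11.1 to 2861 ± 105 normalized counts (SD, n = 3), 5.66 on the log2 scale (limma adjusted p = 2.3e-24). Etv5 went from 395 ± 28.6 to 6527 ± 335 normalized counts (SD, n = 3), 4.04 on the log2 scale (limma adjusted p = 1.05e-26). Etv1 changed by 2.95 on the log2 scale (limma adjusted p = 1.39e-18). The ETS genes with the highest mean normalized counts, Gabpa, Elk3 and Elk4, had log2 fold changes of 0.52, 0.84 and 0.48, all short of 1. The 3 lower genes, Elk1, Etv3 and Elf1, changed by -0.13, -0.13 and -0.12 on the same scale. Each call was lost without some libraries, that of Elk1 without control replicate 3 (limma adjusted p = 0.0583), that of Etv3 without dexamethasone replicate 3 (0.0946) and that of Elf1 without control replicate 2 or dexamethasone replicate 2 (0.0827 and 0.0618). Opposite-strand genes cover 6.98% of the exon bases of Gabpa and 6.95% of those of Elk3. Etv2, the factor that starts endothelial development, was not analysed here.

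Of 11 SOX genes outside the SoxF group, 6 were tested, of which 3 were higher and 2 lower at the adjusted p-value, with a median log2 fold change of -0.03. Past both cut-offs were Sox9, the master factor of cartilage, at 1.92, its partner Sox5 at 1.33 and Sox6 at -2.37 (limma adjusted p-values of 4.04e-22, 1.54e-13 and 3.29e-23). Sox9 went from 4609 ± 246 to 17406 ± 1156 normalized counts and Sox6 from 6932 ± 198 to 1347 ± 113 (SD, n = 3), so that these partners in cartilage moved in opposite directions. Sox11 was lower at the adjusted p-value alone, at -0.24. An antisense gene overlaps 9.25% of the exon bases of Sox5. Sox4 had a log2 fold change of 0.10, which turned to -0.01 with libraries scaled to equal totals and to -0.11 under quantile normalization. Its adjusted p-value in limma was 0.177 without control replicate 1 and 0.189 without dexamethasone replicate 1, and a gene on the opposite strand overlaps 54.6% of its exon bases.

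Of 8 other GATA-type genes and FOG cofactors, 5 were tested. At the adjusted p-value 0 were higher and 3 lower, and Trps1, an atypical GATA repressor of the bone and cartilage lineages, was differentially expressed. It fell from 11431 ± 180.4 to 5160 ± 213 normalized counts (SD, n = 3), or -1.15 on the log2 scale (limma adjusted p = 3.59e-19). The cofactors Zfpm1 and Zfpm2, at log2 fold changes of -0.23 and -0.61, were lower at the adjusted p-value alone. The call of Zfpm2 was lost without control replicates 2 or 3 or dexamethasone replicates 2 or 3, with limma adjusted p-values of 0.144, 0.122, 0.096 and 0.0785. In all, 7 of its 16 alternative settings lost it, among them DESeq2 on the recovered reads (DESeq2 adjusted p = 0.0758). Gata6 was at 97.8 and 89.5 normalized counts, with a limma adjusted p-value of 0.495. Gata1, the erythroid and megakaryocytic GATA factor, stayed between 0.918 and 2.64 normalized counts.

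The partners of Tal1 and Lmo2 changed in both directions. Of 17 genes for these partners and for the ID proteins, which keep helix-loop-helix factors from DNA, 14 were tested. At the adjusted p-value 4 were higher and 9 lower, and past both cut-offs 2 were higher and 2 lower, with a median log2 fold change of -0.28. Id1 went from 632 ± 6.65 to 4631 ± 148 normalized counts (SD, n = 3), 2.87 on the log2 scale (limma adjusted p = 2.08e-25). The ID genes Id2 and Id3 went the other way, with log2 fold changes of -0.80 and -0.41 (limma adjusted p-values of 1.34e-13 and 1.09e-09). Id3 was at 9416 normalized counts on average in the controls, above Id1 and Id2, and at 7063 with dexamethasone. Runx1, which works with Tal1 and Gata2 in blood formation, was higher by 1.5 on the log2 scale (limma adjusted p = 6.15e-22). Lyl1, the paralog of Tal1, went the other way from Tal1, from 92.5 ± 9.87 to 35.5 ± 5.81 normalized counts (SD, n = 3), -1.37 on the log2 scale (limma adjusted p = 9.37e-07). Ssbp2, a stabilizer of the LDB1 complex, had a log2 fold change of -1.33, and an opposite-strand gene overlaps 22.1% of its exon bases. The E proteins that pair with Tal1 had the highest mean counts of the list, and the log2 fold changes of Tcf3, Tcf4 and Tcf12 were 0.64, -0.61 and -0.28. Ssbp4, at 0.75, was the other gene that was higher.

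Of 27 endothelial genes known as targets of these factors, 18 were tested, of which 8 were higher and 5 lower at the adjusted p-value. Cdh5, Tie1, Tek, Kdr, Egfl7, Robo4, Cldn5 and Plvap are also among the endothelial identity markers described below, so the counts of these lists are not separate. Past both cut-offs 3 were higher and 4 lower, and the median log2 fold change was 0.08. Notch4, Efnb2 and Angpt2 rose, with log2 fold changes of 2.25, 1.99 and 1.54. Efnb2, the arterial ephrin, went from 1010.1 ± 18.3 to 4013 ± 236 normalized counts (SD, n = 3; limma adjusted p = 6.16e-22). Mef2c, Eng and Nos3 fell, with log2 fold changes of -1.52, -1.30 and -1.17. That of Nos3 was short of the cut-off without control replicate 1, at -0.99, and without dexamethasone replicate 3, at -0.83, and opposite-strand genes cover 32.3% of its exon bases. The targets with the highest mean, Thbd, Vcam1 and Notch1, had log2 fold changes of -0.90, -1.0 and 0.77. That of Thbd reached the cut-off at the same total, at -1.01, and after quantile normalization, at -1.05, and that of Vcam1 was short of it, at -0.96 without control replicate 2 and -0.996 without dexamethasone replicate 2. Flt1, a receptor for VEGF, was at 4371 and 5374 normalized counts in the controls and with dexamethasone, and Vwf, the clotting factor carrier, at 1825 and 3097, both higher at the adjusted p-value (log2 fold changes of 0.30 and 0.76). Opposite-strand genes cover 9.76% of the exon bases of Notch1.

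**Figure D4:**
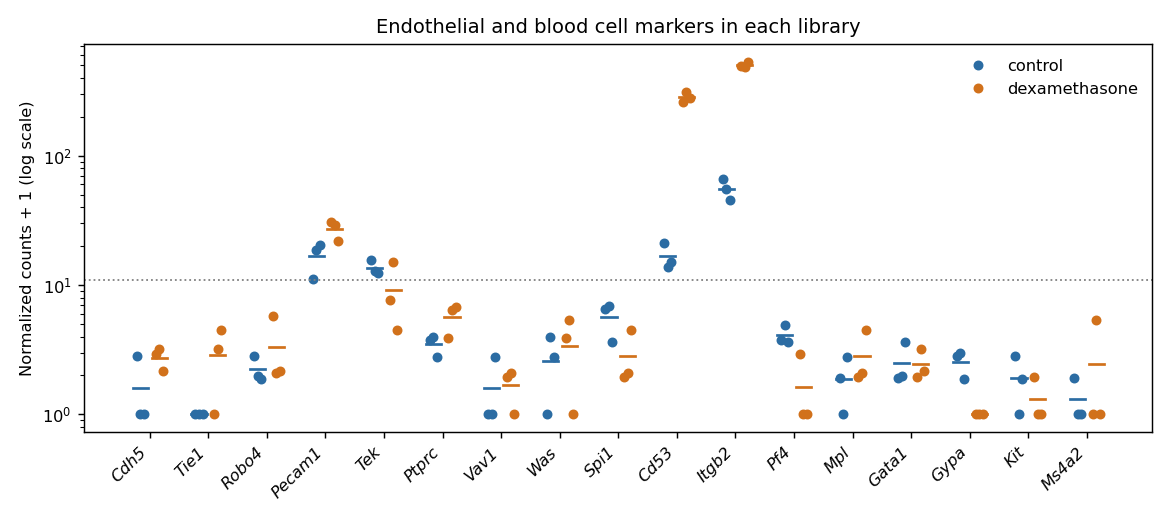
Normalized counts plus 1 (log axis) of endothelial and blood cell markers in each control library (blue) and each dexamethasone library (orange), with bars at the group means and a dotted line at a mean of 10. Cdh5, Tie1, Robo4, Ptprc, Gata1 and Kit lie below the line in all 6 libraries. Cd53 and Itgb2 lie above it in every control library and far higher with dexamethasone. Only a part of the marker lists is drawn. Among those left out are Laptm5 and Coro1a, which were lower, and Cd34, Kdr, Plvap and Esam, which were higher.

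Several defining markers of the cells in which these factors usually act were near 0, whereas others were measured. Among 12 endothelial identity markers, 10 were in the table and 7 were tested. At the adjusted p-value, where 37.2% of all tested genes were higher and 35.2% lower, 5 of these markers were higher and 0 lower. Their summed level was 4388 to 4790.1 normalized counts in the control libraries and 8919.7 to 9234 with dexamethasone, of which Cd34, also made by stromal and blood cells, gave 4128 and 8503 on average. The log2 fold change of Cd34 was 1.04 (limma adjusted p = 6.63e-18). It was short of the cut-off at the same total, at 0.93, and after quantile normalization, at 0.85. The other 4 that were higher were Kdr, at 348 and 414 normalized counts on average, Plvap, at 70.2 and 94.2, Pecam1, at 15.7 and 26.3, and Esam, at 14.3 and 33 (limma adjusted p-values of 0.00812, 0.0322, 0.0419 and 0.00132). The call of Pecam1 was lost without control replicate 1 or dexamethasone replicates 1 or 2 (limma adjusted p-values of 0.208, 0.117 and 0.0983). That of Plvap was lost without control replicates 1 or 3 or dexamethasone replicates 1 or 2 (limma adjusted p-values of 0.0597, 0.137, 0.0665 and 0.142). Each was lost in 8 of its 16 alternative settings, among them DESeq2 on the recovered reads (DESeq2 adjusted p-values of 0.0991 and 0.065). Tek, the receptor of angiopoietins, was at 12.6 and 8.11 normalized counts with overlapping groups, -0.75 on the log2 scale (limma adjusted p = 0.146). Without dexamethasone replicate 2 Tek was lower, at -1.21 (limma adjusted p = 0.0284), and without dexamethasone replicate 3 it was at -0.33 (limma adjusted p = 0.524). Cdh5, Tie1 and Robo4, which define endothelium, were between 0 and 4.77 normalized counts in every library. The summed level of 9 pan-hematopoietic markers, 4 of them tested with 2 higher and 2 lower at the adjusted p-value, was 108 to 141 in the control libraries and 781 to 836 with dexamethasone. The 2 that rose were Cd53, on average 15.7 normalized counts in the controls and 283 with dexamethasone, and Itgb2, at 54.6 and 503. Ptprc, the common leukocyte antigen, stayed between 1.76 and 5.81, and Vav1 between 0 and 1.76. Coro1a and Laptm5 were the 2 lower, at 20.4 and 19.2 in the controls and 6.79 and 6.41 with dexamethasone. The part of these markers in the higher Gata2, Tal1, Ets1 and Fli1 was not tested.

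Among markers of the other blood lineages that use Gata2, Tal1 or Fli1, some were near 0 and others were measured. Itga2b was at 409 normalized counts on average in the controls and 438 with dexamethasone. The erythroid markers Epor and Alas2 were at 74.1 and 26.6 in the controls and 54.5 and 27.3 with dexamethasone. Of 7 mast cell markers 3 were in the table and 0 could be tested, with a summed level of 8.26 to 11.7 in the control and 7.63 to 11.6 in the dexamethasone libraries, and Kit between 0 and 1.84. The 7 erythroid markers, 2 of them tested with 0 higher and 1, Epor, lower at the adjusted p-value, summed to 106 to 124 in the control and 66.8 to 119 in the dexamethasone libraries, with Hba-a1 between 0 and 1.91. The call of Epor was lost without control replicates 1, 2 or 3 or dexamethasone replicate 1, with limma adjusted p-values of 0.0524, 0.181, 0.0662 and 0.385. In all, 9 of its 16 alternative settings lost it, among them DESeq2 on the recovered reads (DESeq2 adjusted p = 0.0939). Of 7 megakaryocyte and platelet markers 5 were in the table and 1, Itga2b, was tested and not called. Their sum was 393 to 461 in the control and 428 to 481 in the dexamethasone libraries, nearly all of it Itga2b, with Pf4 between 0 and 3.91. The 9 osteoblast markers were all tested, with 7 lower and 2 higher, and Spp1 and Dmp1 were the 2 that rose. Their summed level was 984659 to 1052440 normalized counts in the control and 1514280 to 1587000 in the dexamethasone libraries, since Spp1 gave most of it with dexamethasone.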

How the data were processed

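RNA was sequenced in 3 control and 3 dexamethasone libraries. Per the submitters' processing notes the authors used STAR 2.7.10a and DESeq2 1.36.0. The signal they deposited is a read count over a size factor that is constant within a library. The submitters' processing notes name GRCm39, whereas no annotation release is given in the sources used here, nor whether counting used strand. The study names a stranded library kit. GENCODE M21 (GRCm38) served for symbols (28087 of 29616 genes matched), exon lengths and overlaps, and RefSeq GRCm38.p6 for promoters. Whole reads were recovered for 100% of the values (tolerance 0.001 reads), 72596611 to 89910728 per library, and there were 0 columns of other samples.

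Normalized counts were compared as log2(value + 1) with limma 3.58.1 (trend) in R 4.3.3, with Benjamini-Hochberg adjustment over the 17442 genes with a mean of at least 10. The pseudocount makes fold changes of low genes smaller. Between replicates the chi-square over its degrees of freedom was 3.27 to 26.1, above sampling noise. It was 26.1 and 18.1 in the pairs with dexamethasone replicate 3, and 3.27 to 7.44 in the other pairs. Same-numbered libraries did not deviate together. The methods were tested on simulated counts. The members and lists were chosen with earlier results of these data known, so no list is independent evidence. The named genes are all members and, of each other list, the 3 with the highest mean and up to 4 with the largest change. Of the marker lists, the defining genes are named. Genes outside this rule, such as Gata1, Eng, Flt1, Vwf, Spp1 and Dmp1, were named after their values were seen. Alternatives were other pseudocounts, filters and scalings, no trend, edgeR 4.0.16, DESeq2 1.42.0, a replicate block and each library left out.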

Additional observations from a re-analysis of the deposited data

How the results depend on the processing

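The 2 differentially expressed members, Gata2 and Tal1, became 1 with a pseudocount of 5 (Tal1 at 0.93), at the same total (0.89), with edgeR on the recovered reads (0.98) and under a filter of mean 100, which Tal1 does not pass. Leaving out 1 library gave 1 to 2, with 1 without control replicate 1 (Tal1 at 0.86), dexamethasone replicate 1 (0.996) or dexamethasone replicate 3 (0.99). With no filter on low values there were 3, Sox18 being added, and under the other alternatives 2. The members at an adjusted p-value under 0.05 were 4 or 5, and Ets2 was the one lost except under the filter of mean 100. With no filter Ets2 was lost (limma adjusted p = 0.0637) and Sox18 gained. The 3 other ETS genes past both cut-offs became 6 with no filter. Over all genes the count was 3894, against 2170 (1350 higher and 820 lower) under the filter of mean 100, which tests fewer genes, 3878 to 3910 with 1 library left out, 3944 by edgeR and 3870 by DESeq2. Scaling to the same total moved the median of all genes to -0.11. The difference of the log2 ratio of Ets1 to Ets2 was 0.99 to 1.04 with 1 library left out.

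Libraries with the same number had correlations of their deviations of -0.0999, -0.105 and -0.0199, and no library correlated best with its own number. No pairing by replicate number was thus seen, but deviations of 3 libraries in each group cannot exclude one. By the study's methods littermates served as controls, and whether replicate numbers follow litters is not given in the sources used here. The replicate block gave 3897 calls (2035 higher and 1862 lower), with 2 members differentially expressed and 4 at an adjusted p-value under 0.05, Ets2 being at 0.11 in limma.

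Of the 80 listed genes tested, 65 kept their direction and their call by both cut-offs in all their alternatives. Of the 69 with an adjusted p-value under 0.05, 57 kept that in all their alternatives, and the other 12 were Ets2, Etv3, Elk1, Elf1, Elf4, Sox4, Zfpm2, Kdr, Plvap, Pecam1, Coro1a and Epor. Elf4 was lost after quantile normalization only, Kdr at the same total only and Coro1a without the trend only. Directions turned at the same total for Sox4 (-0.0105), Tal2 (-0.109), Ephb4 (-0.0783) and Itga2b (-0.0119), after quantile normalization for Sox4 (-0.108), Ephb4 (-0.121), Hhex (0.00628) and Alas2 (0.0381), and with DESeq2 for Alas2 (0.0196). With 1 library left out they turned for Gata6 (-0.241 to 0.00538), Tal2 (-0.17 to 0.177), Egfl7 (-0.241 to 0.375), Hhex (-0.182 to 0.0807), Ephb4 (-0.0148 to 0.0989) and Alas2 (-0.499 to 0.246). The cause was not tested. Erg, Sox7, Sox18 and Lmo2 had 0 to 11 reads in each library, and their ratios have wide counting intervals.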
